A study of Nothobranchius furzeri and Iconisemion striatum and Callopanchax occidentalis with 18 samples.

Results

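The let-7 family of microRNAs (miRNAs) was followed through small RNA libraries of killifish embryos. Its members were the 10 rows of the deposited count table whose names begin with let-7 and that are not 3p arms: let-7a, let-7b, let-7c-5p, let-7d-5p, let-7e, let-7f, let-7g, let-7h, let-7i and let-7j. They were 10 of 291 mature miRNAs in the table, followed in 18 libraries of 8 species.

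miRNAs are small RNAs that silence messenger RNAs, which they recognise mainly through a seed near their 5′ end, and members of one family share that seed. let-7 was found in Caenorhabditis elegans as a switch of developmental timing. In vertebrates it rises as cells leave the progenitor state, the RNA-binding protein Lin28 blocks its maturation, and it represses, among others, lin28, hmga2 and ras messenger RNAs. Some let-7 genes of vertebrates lie in clusters with miR-99, miR-100 and miR-125 genes, and miR-125 is the relative of lin-4, another timing miRNA of C. elegans.

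Every library came from total RNA of whole embryos collected while the somites, the segments of the body axis, were forming. Annual killifish hatch in seasonal ponds, and their embryos can survive the dry season in diapause, a pause of development. Of Nothobranchius furzeri, labelled annual, 5 libraries were of embryos in diapause. Replicate 1 was of strain MZM0403, replicates 2 and 3 of strain MZM0410 (replicate 3 after 2 weeks in diapause), and replicates 4 and 5 of the cross GRZ x MZZW (after 1 and 2 months). Another 3 N. furzeri libraries, all of strain MZM0410, were of embryos not in diapause. Nematolebias papilliferus and Callopanchax occidentalis, also labelled annual, were each represented by 1 library of embryos in diapause. No library of a species labelled non-annual was in diapause. Among them Aphyosemion striatum, given as Iconisemion striatum in the organism label, had 4 libraries. Rivulus cylindraceus, Aplocheilus lineatus, Epiplatys dageti monroviae and Austrofundulus leohoignei had a single library apiece. Whether replicates came from separate clutches, and how many embryos were pooled, is not stated in the labels, so the p-values describe only how these samples varied, which may be technical variation.

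Counts on miRNAs totalled between 371908 and 4177400 per library. A count of 0 allows up to 3 counts, which lay between 0.718 and 8.07 RPM (the count relative to the library's total, scaled alike for every library). The library names carry lane 1 for 8 libraries, pool 3 for 9 and pool 2 for 1. Of the miRNA lists checked against the label of whole embryos, muscle miRNAs took 0.00537 to 0.0774% of counts, neural miRNAs 0.00470 to 0.646%, skin and epithelial miRNAs 0.217 to 1.55%, and miR-10 and miR-196, encoded in the Hox clusters, 6.03 to 92.6%. The 3 blood miRNAs reached 0.0582% and were at 0 in some libraries. miR-430, a family of the early embryo, took 0.840 to 65.5%. Its share was 33.9 to 64.1% in A. striatum, 4.32 to 20.9% in N. furzeri not in diapause and 1.87 to 11.2% in N. furzeri in diapause. 2 libraries stood apart within their groups and are named beside each result they touch. N. furzeri in diapause replicate 1 had the highest RPM of its group for 46.1% of 102 miRNAs averaging at least 50 CPM (RPM after TMM scaling, which corrects for differences in composition), and A. striatum replicate 4 for 53.9%. Both were of lane 1.

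let-7 was a minor family at this stage. let-7a, its leading member, ranked between 29th and 95th among the miRNAs of a library, and the 10 members together had between 186 and 3964 counts. The summed family lay at 2848 RPM (95% Wilson interval 2761 to 2938) in N. furzeri in diapause replicate 1, at 321, 354, 117 and 151 RPM in replicates 2 to 5, and at 158, 562 and 392 RPM in replicates 1 to 3 of N. furzeri not in diapause. The first of these libraries stood far above the others, and the remaining 4 in diapause overlapped those not in diapause. In A. striatum the sum was 705, 817, 698 and 2274 RPM in replicates 1 to 4. Replicate 4 stood above the rest of its group, and its neural miRNAs took 0.102% of counts against 0.0216 to 0.0351% in replicates 1 to 3. In N. furzeri in diapause replicate 1 the neural miRNAs (8 names starting miR-9 or miR-124) took 0.646% against 0.00470 to 0.0245% in replicates 2 to 5. Of its 8994 neural counts, 5516 were of miR-9-7-3p, which lay higher in every lane 1 library (12.1 RPM or more) than in any other (at most 11.6 RPM). Muscle and blood miRNAs and the liver miRNA miR-122 were also highest of the group in N. furzeri in diapause replicate 1. They took 0.0308, 0.00683 and 0.00180% there, against at most 0.00964, 0.000588 and 0.00104% in replicates 2 to 5. Skin and epithelial miRNAs took 0.534% there, within the 0.258 to 1.13% of replicates 2 to 5. In A. striatum miR-9-7-3p stood at 262 RPM in replicate 4 and 4.77 to 11.6 RPM in the others, and miR-9-5p at 427 against 203 to 320 RPM. The part of the neural or other tissue miRNAs or of the lane in the let-7 levels was not tested. In whole embryos more cells of a type and more RNA per cell cannot be told apart.

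With TMM scaling over all libraries, the summed family differed between N. furzeri in diapause and not by -0.10 (log2, pooled SD 1.17), less than the spread, and with library totals only the difference was 0.13. It was -0.60 without diapause replicate 1, and with 1 library left out at a time it ran from -0.68 (without replicate 1 of the other group) to 0.35 (without replicate 2 of that group). N. furzeri not in diapause lay below A. striatum by a log2 difference of -1.25 (pooled SD 0.72), which became -0.66 without N. furzeri replicate 1 and -1.70 without N. furzeri replicate 2. The groups of that pair did not overlap, but with TMM scaling the nearest libraries, at 791.8 and 792.7 CPM, were almost equal. With library totals only, the nearest were at 562 and 698 RPM and the log2 difference was -1.58. By TMM scaling, N. furzeri in diapause differed from A. striatum by -1.35 (pooled SD 0.95), with overlap, and by -1.85 without diapause replicate 1. These sums are descriptions with no test.

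**Figure D1:**
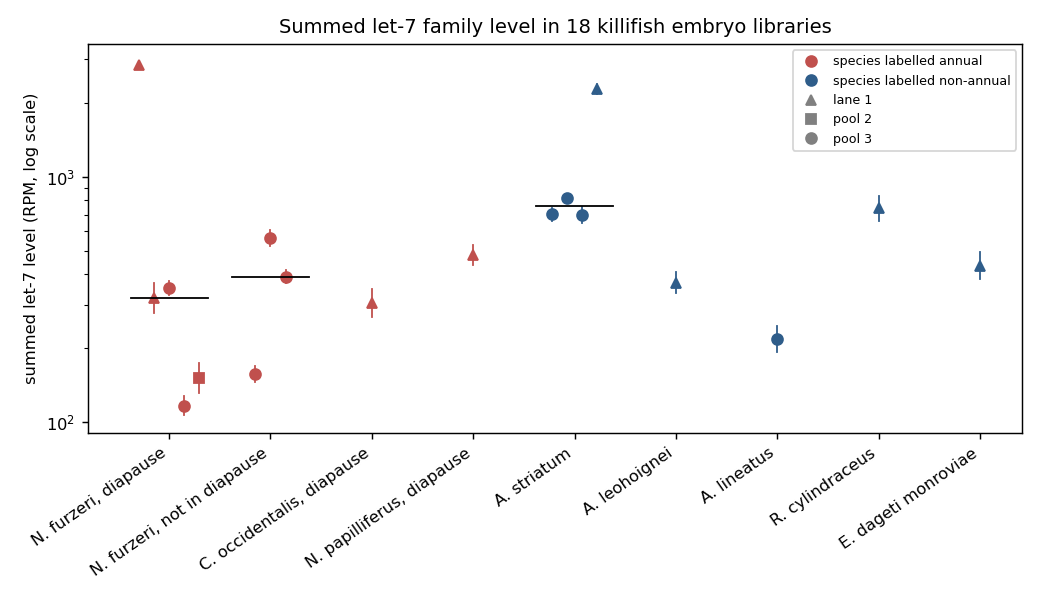
Summed RPM of the 10 let-7 members (log axis) in each library, with 95% Wilson intervals that cover counting error only; horizontal lines are medians of groups with several libraries, colours give the life style label and symbols the lane or pool. The library of N. furzeri in diapause replicate 1 (2848 RPM) and that of A. striatum replicate 4 (2274 RPM) lie above all others.

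Among the species with 1 library, the summed level was lowest in A. lineatus at 218 RPM (interval 193 to 247), followed by C. occidentalis at 306 RPM (269 to 348), A. leohoignei at 370 RPM (335 to 407), E. dageti monroviae at 435 RPM (382 to 495), N. papilliferus at 482 RPM (439 to 528) and R. cylindraceus at 745 RPM (662 to 838). By RPM, the intervals of neighbours overlapped from C. occidentalis to N. papilliferus. The intervals of A. lineatus and R. cylindraceus did not overlap those of their neighbours. Overlap of intervals does not show that levels were equal, and spread between embryos of these species is unknown. In RPM, R. cylindraceus lay above 7 of the 8 N. furzeri libraries, which reached 562 RPM, and below diapause replicate 1. A. lineatus lay within the range of these 7. The order depended on the scaling. With TMM scaling over all libraries, A. leohoignei was lowest at 129 CPM and C. occidentalis highest at 494 CPM. R. cylindraceus, at 451 CPM, then lay below N. furzeri not in diapause replicates 2 and 3 (792 and 509 CPM) and diapause replicate 3 (461 CPM) as well.

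The members were far from equal. let-7a had 7600 counts over the 18 libraries, 49.3% of the family, let-7g 3512 (22.8%), let-7e 1758 (11.4%), let-7d-5p 1178 (7.65%), let-7i 609 (3.95%) and let-7j 279 (1.81%). The rarest 4 were let-7h with 147, let-7c-5p with 142, let-7b with 94 and let-7f with 83 counts, seen in 17, 14, 12 and 15 libraries. let-7a had the highest count of the family in 16 of 18 libraries, tied with let-7g in one of them. let-7g led in A. striatum replicate 1 (454 counts against 334 of let-7a) and in R. cylindraceus (112 against 55). In that tied library, of E. dageti monroviae, both had 76 counts. Passenger strands had rows for let-7c and let-7d only: let-7c-3p and let-7d-3p had 2 counts each in all libraries together. Those of the other members were not measured.

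**Figure D2:**
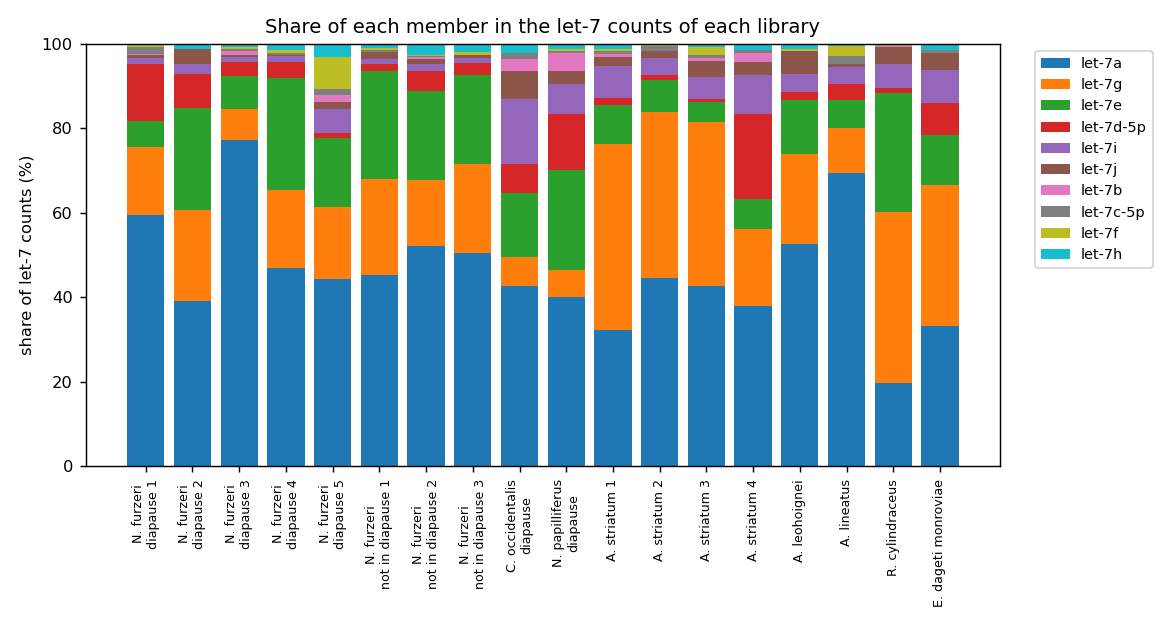
Share of each member in the let-7 counts of each of the 18 libraries, in percent. let-7a is the largest part of most bars, the let-7g part is large in A. striatum, R. cylindraceus and E. dageti monroviae, and the let-7d-5p part is large in A. striatum replicate 4 (20.2%).

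Shares within the family do not depend on how libraries are scaled. let-7e took 25.5, 21.2 and 21.1% of the family in N. furzeri not in diapause, and 9.38, 7.43, 4.79 and 7.08% in A. striatum. let-7g took 22.9, 15.5 and 20.9% in N. furzeri not in diapause, and 43.9, 39.3, 38.8 and 18.1% in A. striatum. Among libraries not in diapause the let-7e shares of the species did not overlap, while the let-7g share of A. striatum replicate 4 lay within the N. furzeri range. In N. furzeri in diapause let-7e took 6.004, 24.2, 7.76, 26.5 and 16.4%, and replicates 1 and 3 lay within the A. striatum range. The let-7i share was 1.06, 1.66 and 1.40% in N. furzeri not in diapause against 7.74, 4.12, 5.32 and 9.13% in A. striatum, without overlap. In diapause it was 1.44, 2.15, 1.33, 1.25 and 5.82%, and replicate 5 lay within the A. striatum range.

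The ratio of let-7e to let-7g, chosen after these values were seen and given with no test, gives 1 number per library. It was 1.11, 1.37 and 1.01 in N. furzeri not in diapause, 0.372, 1.125, 1.06, 1.43 and 0.969 in replicates 1 to 5 in diapause, and 0.214, 0.189, 0.123 and 0.390 in A. striatum. In N. furzeri, 7 of 8 libraries lay above those of A. striatum, in diapause and out of it, and the library of strain MZM0403 did not. The single libraries of the annual C. occidentalis and N. papilliferus had ratios of 2.19 (Wilson-based interval 1.22 to 3.92) and 3.79 (2.50 to 5.72). Those of A. leohoignei, A. lineatus, R. cylindraceus and E. dageti monroviae had 0.605 (0.429 to 0.852), 0.630 (0.346 to 1.14), 0.696 (0.522 to 0.929) and 0.355 (0.230 to 0.549). Without the MZM0403 library, the libraries of species labelled annual thus lay between 0.969 and 3.79 (n = 9, 7 of them of N. furzeri). Those labelled non-annual lay between 0.123 and 0.696 (n = 8, 4 of them of A. striatum). With the MZM0403 library the lowest value under the annual label was 0.372. Counting A. leohoignei as annual, as an alternative of the species comparison did, would place 0.605 there, and the ranges would overlap. Within lane 1 the ranges were 1.125 to 3.79 (n = 3, without the MZM0403 library) and 0.355 to 0.696 (n = 4), and with that library the former began at 0.372. Within pool 3 they were 1.01 to 1.43 (n = 5, N. furzeri alone) and 0.123 to 0.630 (n = 4). Over all libraries, the other ratios computed between members all overlapped between the labels, also without the MZM0403 library. That of let-7e to let-7a lay between 0.100 and 0.616 under the annual label and between 0.0960 and 1.42 under the other. Within pool 3, that of let-7i to let-7a did not overlap (0.0172 to 0.0317 annual, 0.0565 to 0.240 non-annual). Neither did that of let-7i to let-7e there (0.0417 to 0.171 and 0.555 to 1.11). Within lane 1 both overlapped. The counting reference is unknown here, so whether a species' own let-7e or let-7g departs from it was not tested. let-7 members are near-identical, and how their shared reads were divided between rows is uncertain.

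**Figure D3:**
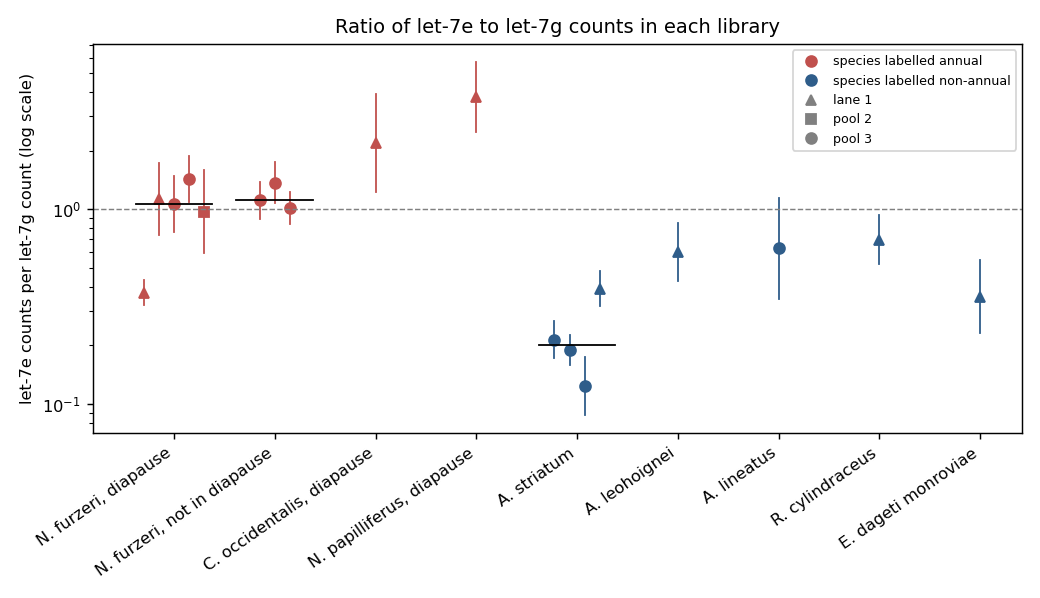
Counts of let-7e per count of let-7g (log axis) in each library, with intervals made from the 95% Wilson interval of let-7e among the counts of both; lines are group medians, colours give the life style label and symbols the lane or pool, and the dashed line marks equal counts. The libraries of species labelled annual lie at 0.969 or above except that of strain MZM0403 (0.372), and those of species labelled non-annual at 0.696 or below.

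N. furzeri embryos in diapause and not in diapause did not differ detectably in any let-7 member. Of the 10 members, 7 passed the filter on low counts and entered edgeR's quasi-likelihood test across 161 miRNAs, and let-7b, let-7c-5p and let-7f, with at most 7, 70 and 15 counts in a library, did not. None of the 7 was called in either direction (0 at an unadjusted p under 0.05, 0 in DESeq2), where over all miRNAs 0% were called (24 at an unadjusted p under 0.05, and 4 called in DESeq2). The median log2 fold change of the 7 was 0.58, against 0.14 over all miRNAs tested. Without diapause replicate 1 the members' median was -0.51 (0.08 over all), and within pool 3 it was -0.38. Leaving out replicate 1 or 2 of the other group gave 0.33 or 1.30. No member separated the groups without overlap, where 8.70% of all miRNAs did.

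let-7a stood at 1696, 126, 274, 54.8 and 67.2 RPM in replicates 1 to 5 in diapause and at 71.3, 294 and 198 RPM out of it. Replicate 1 was above every other N. furzeri library and the rest overlapped. Its log2 fold change was 0.72 (SE 0.87, edgeR adjusted p = 0.710), and without replicate 1 it was -0.28 (adjusted p = 0.861).

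let-7g stood at 459, 69.1, 25.9, 21.7 and 25.6 RPM in diapause and 36.1, 87.1 and 82.1 RPM out of it. Outside replicate 1, 3 of 4 diapause libraries lay below the libraries not in diapause in RPM. With TMM scaling over all libraries this did not hold, as diapause replicate 4 (57.5 CPM) lay above replicate 1 not in diapause (43.1 CPM). The log2 fold change was 0.29 (SE 0.77, edgeR adjusted p = 0.826) with replicate 1 and -0.75 (adjusted p = 0.427) without it. Within pool 3 it was -0.71 (adjusted p = 0.564).

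let-7d-5p, the member with the largest SE, stood at 386, 25.9, 11.4, 4.63 and 1.60 RPM in diapause against 2.63, 26.4 and 10.6 RPM out of it. Its log2 fold change of 2.01 (SE 1.40, edgeR adjusted p = 0.555) became -0.21 (adjusted p = 0.889) without replicate 1 and -0.06 (adjusted p = 0.958) within pool 3. The sign of these 3 members thus turned when that 1 library alone was left out. Of 20 alternatives, let-7a was negative in 2, let-7d-5p in 4 and let-7g in 7. let-7a stayed positive within pool 3 and with strain MZM0410 only, which also lack that library.

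let-7e kept its sign without that library. It stood at 171, 77.7, 27.4, 30.9 and 24.8 RPM in diapause and 40.2, 119 and 82.9 RPM out of it, with a log2 fold change of -0.52 (SE 0.51, edgeR adjusted p = 0.666) and of -0.75 (adjusted p = 0.554) without replicate 1. It was 0.026 when replicate 2 of the non-diapause group was left out. In RPM, 3 of the 5 diapause libraries, all after at least 2 weeks, lay below the 3 libraries not in diapause, but strain and pool differed with diapause time. With TMM scaling over all libraries this did not hold, as diapause replicate 4 (82.1 CPM) lay above replicate 1 not in diapause (47.9 CPM). The scarce let-7h, let-7i and let-7j had log2 fold changes of -0.90 (SE 0.69), 0.85 (SE 0.79) and 0.58 (SE 0.89), on 2 to 20, 4 to 57 and 2 to 33 counts per library, none of them called. With standard errors of 0.51 to 1.40, changes of these sizes were not detectable.

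N. furzeri not in diapause and A. striatum, both with replicates and both outside diapause, differed in let-7g. let-7i and let-7j were called as well, but they passed the filter on low counts only through A. striatum. let-7g, let-7i and let-7j were called lower in N. furzeri by edgeR's quasi-likelihood test, 3 of the 7 members tested, where 21.7% of all 157 miRNAs were called, 14.0% lower and 7.64% higher (57 miRNAs at an unadjusted p under 0.05). The same 3 had no overlap between the species, which held for 37.6% of all miRNAs. The N. furzeri libraries alone would not have carried let-7i and let-7j past the filter on low counts. Both passed it through A. striatum, where they were high, so their calls and their lack of overlap are no independent support. The median log2 fold change of the 7 members, both among them, was -2.15, against 0.00 over all miRNAs. Without A. striatum replicate 4, which is also the comparison within pool 3, it was -0.86 with 3 of 7 members positive, and without N. furzeri replicate 2 it was -3.30 over 9 members. let-7b, let-7c-5p and let-7f did not pass the filter, with 0 to 2, 0 to 4 and 3 to 6 counts per library in N. furzeri and 2 to 35, 5 to 20 and 1 to 14 in A. striatum.

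let-7g stood at 36.1, 87.1 and 82.1 RPM in N. furzeri and at 309, 321, 271 and 412 RPM in A. striatum. Every A. striatum library was above every N. furzeri library. In scaled counts it averaged 72.8 ± 27.1 CPM (SD, n = 3) against 323 ± 120.4 CPM (n = 4), a log2 fold change of -2.15 (SE 0.49, edgeR adjusted p = 0.0120).

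let-7i, with the largest fold change of the members tested, stood at 1.68, 9.33 and 5.50 RPM against 54.5, 33.7, 37.1 and 208 RPM. These values rest on 7, 12 and 14 counts in N. furzeri and 40 to 156 in A. striatum, few enough to widen the error of its fold. The log2 fold change was -3.57 (SE 0.74, edgeR adjusted p = 0.00975). let-7j, at 2.63, 6.999 and 1.96 RPM against 14.3, 12.5, 25.1 and 73.2 RPM, had one of -2.73 (SE 0.75, edgeR adjusted p = 0.0219), on 11, 9 and 5 counts in N. furzeri. The lowest A. striatum library was again above the highest of N. furzeri for both.

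The abundant let-7a and let-7e were not called. let-7a stood at 71.3, 294 and 198 RPM in N. furzeri and 228, 364, 298 and 863 RPM in A. striatum (log2 fold change -0.91, SE 0.51, edgeR adjusted p = 0.199), and the species overlapped. let-7e, the one member tested with a positive value, stood at 40.2, 119 and 82.9 RPM against 66.1, 60.7, 33.4 and 161 RPM (0.36, SE 0.49, adjusted p = 0.644). let-7d-5p stood at 2.63, 26.4 and 10.6 RPM against 10.9, 10.4, 4.64 and 460 RPM, and its log2 fold change of -2.34 (SE 1.28, adjusted p = 0.197) became 0.42 (adjusted p = 0.660) within pool 3, which leaves out A. striatum replicate 4. let-7h (-0.30, SE 0.83) was not called and became 0.11 within pool 3.

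Within pool 3, let-7g (-2.35, adjusted p = 0.00728), let-7i (-3.27, adjusted p = 0.0113) and let-7j (-2.54, adjusted p = 0.0351) were also called. Of 16 alternatives, let-7g was called in 13, and let-7i and let-7j in 13 and 8 of the 15 in which they were tested. All of these calls ended without N. furzeri replicate 1 (edgeR adjusted p = 0.0558, 0.0548 and 0.0949 for let-7g, let-7i and let-7j) or without N. furzeri replicate 3 (0.0726, 0.0726 and 0.123). The let-7j call also ended without N. furzeri replicate 2 (0.0597), A. striatum replicate 1 (0.0576) or A. striatum replicate 3 (0.0555), and with library totals only (0.0546). With all 3 replicated groups in 1 fit, let-7g (0.0665) and let-7j (0.0543) were not called. The alternatives share libraries, and let-7i and let-7j were high in A. striatum, through which they passed the filter. Their repeated calls are therefore no independent support.

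**Figure D4:**
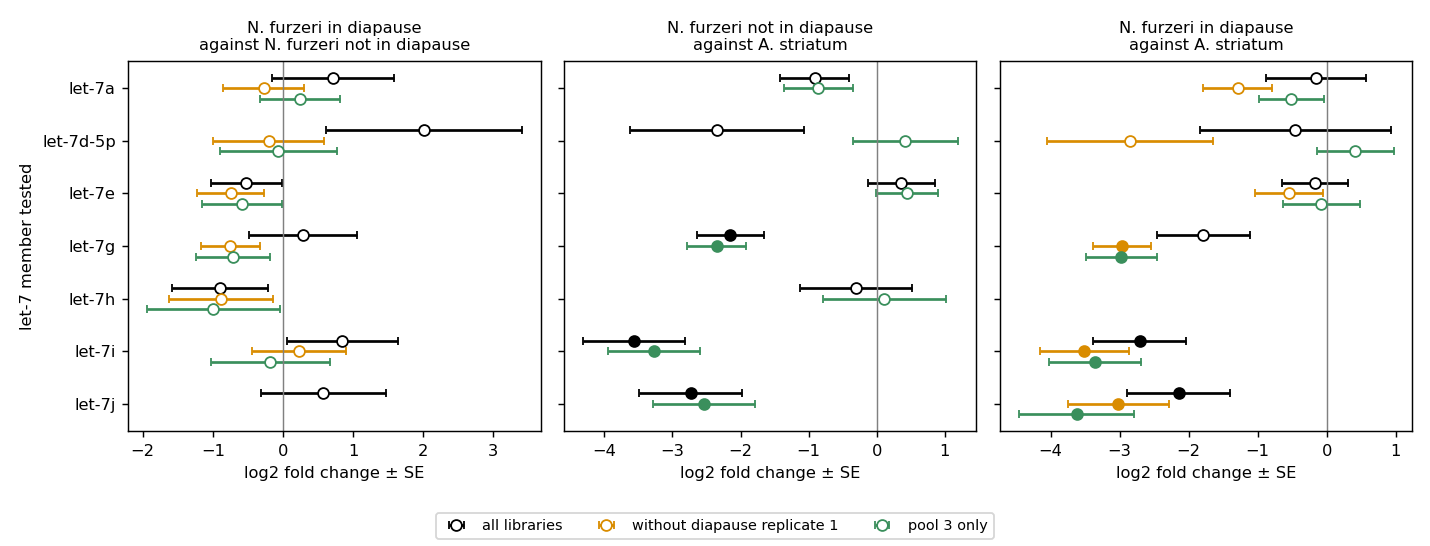
Log2 fold changes with standard errors of the let-7 members tested in the comparisons of N. furzeri in and out of diapause and of each with A. striatum, with all libraries and with fewer; filled circles have an edgeR adjusted p under 0.05. let-7g, let-7i and let-7j lie below 0 in both comparisons with A. striatum, while let-7a, let-7d-5p and let-7g move across 0 between N. furzeri groups when diapause replicate 1 is left out.

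N. furzeri in diapause, compared with the same A. striatum libraries, differed from them in species and state together. Of 6 members tested, let-7i (log2 fold change -2.71, SE 0.67, edgeR adjusted p = 0.0114) and let-7j (-2.15, SE 0.75, adjusted p = 0.0433) were called lower, where 37.3% of 158 miRNAs were called, 22.8% lower and 14.6% higher (79 miRNAs at an unadjusted p under 0.05). In scaled counts let-7i had no overlap between the groups, as had 31.0% of all miRNAs, and let-7j overlapped. The nearest libraries for let-7i, at 24.5 and 25.0 CPM, were almost equal. Here too, the N. furzeri libraries alone would not have carried let-7i or let-7j past the filter on low counts. Both passed it through A. striatum, where they were high. These calls, those under the alternatives below and the lack of overlap of let-7i are therefore no independent support. Of the other members tested, let-7a, let-7e and let-7d-5p had -0.15, -0.16 and -0.45, and let-7g -1.79. The median of the 6, let-7i and let-7j among them, was -1.12 against 0.22 over all miRNAs. It was -2.91 without diapause replicate 1 (-0.13 over all) and -0.58 over 7 members without A. striatum replicate 4, and -0.57 over 8 members without A. striatum replicate 1. let-7g (-1.79, SE 0.67, adjusted p = 0.0552) did not pass, and without diapause replicate 1 it came to -2.97 (adjusted p = 0.000367) and was called. It was also called without A. striatum replicate 4 (adjusted p = 0.0496) and within pool 3 (-2.97, adjusted p = 0.00673), and in 11 of 21 alternatives in all. let-7i was called in 19 of 20, all but library totals only (adjusted p = 0.0712). let-7j was called in 10 of 20, and not without diapause replicate 3 (0.0793), 4 (0.0811) or 5 (0.0852), nor without A. striatum replicate 1 (0.0588), 3 (0.0864) or 4 (0.0832).

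In RPM, let-7i stood at 41.0, 6.91, 4.70, 1.46 and 8.80 in replicates 1 to 5 in diapause, and let-7j at 23.7, 12.1, 1.57, 0.487 and 2.40. Replicate 1 of the diapause group lay within the A. striatum range for both in RPM, and the other 4 lay below it. let-7a (-0.15, SE 0.72), let-7d-5p (-0.45, SE 1.39) and let-7e (-0.16, SE 0.48) were not called. Both comparisons use the same A. striatum libraries and are therefore not independent.

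The 3 species labelled annual, all in diapause, were set against the 5 labelled non-annual, each species being 1 replicate. Diapause thus cannot be told apart from life style. No let-7 member was called among the 6 tested (0 at an unadjusted p under 0.05, 0 in DESeq2), and 0% of 173 miRNAs were (21 at an unadjusted p under 0.05, 8 called in DESeq2). No member separated the life styles without overlap, and 6.36% of all miRNAs did. let-7g was the one member with a negative value (log2 fold change -1.12, SE 0.96, edgeR adjusted p = 0.544). It averaged 67.3 ± 48.5 CPM (SD, n = 3 species) against 147 ± 146 CPM (n = 5). let-7d-5p had the highest value (1.46, SE 0.99, adjusted p = 0.504), at 67.4 ± 20.8 against 24.1 ± 31.4 CPM, and without the MZM0403 library it was 0.75 (adjusted p = 0.749). In this comparison let-7a (0.71, SE 0.77), let-7e (0.71, SE 0.82), let-7i (0.79, SE 0.93) and let-7j (0.61, SE 0.89) overlapped between the life styles, and with library totals only, which moved the median of all miRNAs from -0.06 to -1.19, let-7e, let-7i and let-7j turned negative. The relatedness of the species was left out of the model.

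The ratio of let-7d-5p to let-7a differed between lane 1 and the pools in 2 species. In N. furzeri the 2 lane 1 libraries had 0.205 and 0.228 counts of let-7d-5p per count of let-7a, and the other 6 libraries between 0.0238 and 0.0899. In A. striatum the lane 1 library had 0.533 and the other 3 between 0.0156 and 0.0479. The lane 1 libraries were the higher in both species by this ratio, whereas in the other species the 5 lane 1 libraries lay between 0.0330 and 0.330 and that of A. lineatus, of pool 3, at 0.0565. miR-125a, a relative of lin-4, was split without overlap, at 43.2 to 1025 RPM in the 8 lane 1 libraries and 6.85 to 34.5 RPM in the 10 others. Within strain MZM0410 the lane 1 library had a let-7d-5p ratio of 0.205 and the 4 libraries of pool 3 between 0.0369 and 0.0899. In RPM, let-7d-5p overlapped between lane 1 and the pools in N. furzeri (25.9 and 386 against 1.60 to 26.4) and over all libraries (6.42 to 460 against 1.60 to 26.4). The part of the lane or pool in these values was not tested.

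**Figure D5:**
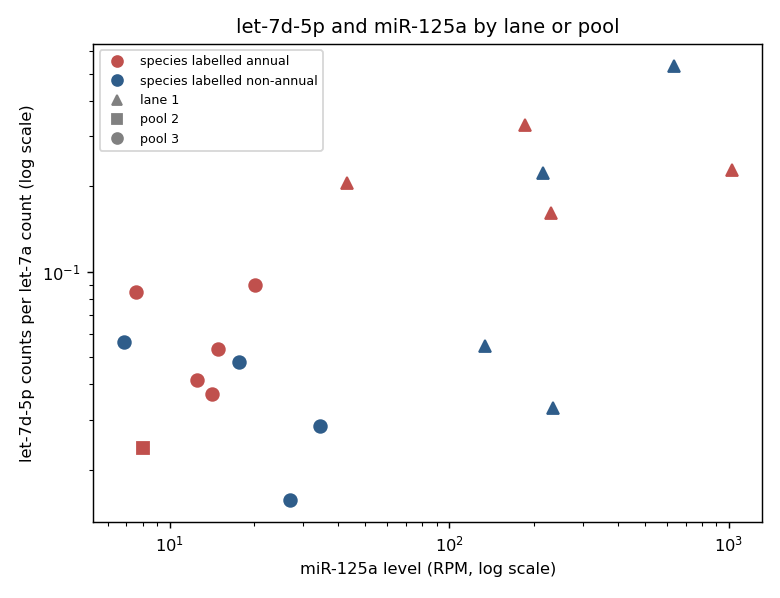
Counts of let-7d-5p per count of let-7a against the RPM of miR-125a in 18 libraries (both axes log), with colours for the life style label and symbols for the lane or pool. The lane 1 libraries all lie to the right, at 43.2 RPM of miR-125a or more, and the highest ratio is that of A. striatum replicate 4 (0.533).

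Of the 10 miRNAs named for let-7's cluster partners (miR-99, miR-100 and miR-125 arms), 6 were tested in each comparison of replicated groups and 5 in that of species, and edgeR's quasi-likelihood test called 0 in every one of them (0%, 21.7%, 37.3% and 0% of all miRNAs). Their most abundant members were miR-100-5p, with 16326 counts in all, and miR-125a, with 3038. miR-100-5p had log2 fold changes of 1.31 (SE 0.96) in diapause within N. furzeri and 0.31 (SE 0.45) between N. furzeri not in diapause and A. striatum. miR-125a had 2.97 (SE 1.47) and -2.61 (SE 0.96), the latter with an adjusted p = 0.0783. Its level was 1025 RPM in diapause replicate 1 and 7.55 to 43.2 RPM in replicates 2 to 5, and 636 RPM in A. striatum replicate 4 and 17.7 to 34.5 RPM in replicates 1 to 3, so that 1 library stood far above the rest in each group. In the comparison of species miR-100-5p had 1.95 (SE 0.58, adjusted p = 0.292) and miR-125a 1.84 (SE 0.72, adjusted p = 0.369). There both lay higher in the annual species without overlap, as 6.36% of all miRNAs did in either direction. miR-100-5p stood at 568 to 1332 against 137 to 465 CPM, and miR-125a at 210 to 489 against 14.3 to 124 CPM. The other partners tested overlapped. The list stood highest at 0.359% of counts in the MZM0403 library.

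Correlations of the family with other miRNAs were moderate. Among 99 miRNAs averaging at least 50 CPM, the 5 with the highest Pearson correlation of log2 (CPM + 1) with the summed let-7 over the 18 libraries were miR-9-5p, a neural progenitor miRNA (r = 0.55), miR-462 (0.52), miR-181a-2-3p (0.52), miR-735-5p (0.51) and miR-731, which shares a fish cluster with miR-462 (0.50). These are descriptions over libraries that share species, lane or pool, and scaling. Without the MZM0403 library and A. striatum replicate 4, the value of miR-9-5p was 0.36, rank 23 of 99, and that of miR-735-5p 0.71. There miR-430a-3p had rank 1 (0.72), as it had by Spearman correlation over the 18 libraries (0.52). With RPM in place of scaled counts, miR-735-5p came to 0.36 and rank 38 of 99, and miR-125a had rank 1 (0.70). Among the 6 most abundant members (15 pairs), let-7i and let-7j were the pair most alike (r = 0.90 of log2 (RPM + 1), n = 18), and let-7d-5p and let-7g the least (0.45).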

How the data were processed

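Per the labels' protocols, the libraries were prepared with a TruSeq small RNA kit (Illumina). Per the file headers, reads passed quality filtering and adapter trimming, a size filter (18 to 33 nt) and alignment. The submitters' processing notes list Bowtie (1.0.0, 1.1.2), CASAVA (1.8.2) and bcl2fastq (1.8.3). For the counting reference and for reads that match more than one miRNA, the sources used here give no details, which matters for near-identical let-7 members. The values used are the raw counts the authors deposited, 1 per mature miRNA and library; a line of totals and 2 columns matching no sample were set aside. Set against the deposited read totals (other values), 1.43 to 77.3% of size-filtered reads were counted. Mature sequences were not used here.

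In R 4.3.3, edgeR 4.0.16 was fitted to all miRNAs of each comparison with filterByExpr, TMM, the quasi-likelihood test and Benjamini-Hochberg adjustment (threshold 0.05); the SE is the log2 fold change divided by the root of F. Counts were summed per species for the comparison of life styles. DESeq2 1.42.0 and limma 3.58.1, other scalings and filters, lane or pool, or strain, as covariates, subsets and left-out libraries were alternatives; those leaving out the MZM0403 library together with another change, or from the sum for its species or the correlations, were added after seeing the data. The fit was tested on simulated data. Wilson intervals (95%) and the floor of 3 counts cover counting error only. All 10 members were described, with fold changes where they passed the filter, beside the 2 most abundant cluster partners and the 5 most correlated miRNAs. Members and lists were chosen with earlier results of these data known. Replicate numbers follow sample order and pair nothing.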

Additional observations from a re-analysis of the deposited data

Results flagged for a closer look

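In groups of 4 or more libraries, a value was singled out when its gap to the nearest library was a large part of the group's range by Dixon's criterion. 14 of 42 sets of values were singled out. The criterion's rate of about 1 in 20 by chance assumes independent sets of normal values. These sets share libraries, and the sum and shares are made from the members, so that rate cannot be set against 14 of 42. Over 102 miRNAs averaging at least 50 CPM, the same criterion singled out 20.6% as high in N. furzeri in diapause replicate 1 and 12.7% in A. striatum replicate 4 (2 and 0 of the 3 let-7 members among them). 6 concerned N. furzeri in diapause replicate 1, of strain MZM0403 and lane 1: the summed let-7 at 2848 RPM (nearest library 354), let-7a at 1696 RPM (274), let-7c-5p at 50.3 RPM (2.40), let-7d-5p at 386 RPM (25.9), let-7g at 459 RPM (69.1) and let-7i at 41.0 RPM (8.80). 5 concerned A. striatum replicate 4, of lane 1: the summed let-7 at 2274 RPM (817), let-7b at 46.6 RPM (5.57), let-7d-5p at 460.4 RPM (10.9), let-7i at 208 RPM (54.5) and the let-7d-5p share of the family at 20.2% (1.55%). The other 3 were shares of the family in other libraries: let-7f at 7.41% and let-7i at 5.82% in N. furzeri in diapause replicate 5, on 14 and 11 counts, and let-7c-5p at 1.02% in A. striatum replicate 2, on 20 counts.

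The sum, let-7d-5p and let-7i were singled out in both of these lane 1 libraries. The neural miRNAs, at 0.646% and 0.102% of counts, were the highest of all 18 libraries in these same 2, and their part in the let-7 values was not tested. They include miR-9-7-3p, which lay higher in every lane 1 library than in any other. Muscle, blood and liver miRNAs were also the highest of the group in N. furzeri in diapause replicate 1, but not in A. striatum replicate 4.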

How the results depend on the processing

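No paired analysis was possible because replicate numbers only follow the order of the samples. Values are log2 fold changes, or counts of calls where said, and the cause of a change of sign or call was not tested.

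For N. furzeri in diapause against not, no let-7 member was called under any of 20 alternatives, and 0 miRNAs were called except 4 with the DESeq2 Wald test. let-7d-5p, let-7g and let-7i turned to -0.064, -0.71 and -0.18 within pool 3, and to -0.16, -0.82 and -0.27 with lane or pool as a covariate, where let-7j turned to -1.31. With strain MZM0410 only, let-7g was -0.85 and let-7i -0.0077, and with strain as a covariate let-7g was -0.77. With library totals only and without diapause replicate 1, an alternative added after seeing the data, let-7a, let-7d-5p, let-7g and let-7i were -0.52, -0.34, -0.97 and -0.034. Leaving out 1 library at a time gave -0.28 to 1.35 for let-7a, -0.21 to 3.11 for let-7d-5p, -0.80 to 0.026 for let-7e, -0.75 to 0.62 for let-7g and -1.40 to 0.021 for let-7h.

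For N. furzeri not in diapause against A. striatum, 34 miRNAs were called, against 19 with library totals only, 17 at 50 CPM or more, and 7 to 44 with 1 library left out. Of let-7 members, 1 was called at 50 CPM or more, where let-7i and let-7j were not tested, 1 with 3 groups in 1 fit, and 0 to 3 with 1 library left out. let-7d-5p and let-7h turned to 0.42 and 0.11 within pool 3 and to 0.49 and 0.16 with lane or pool as a covariate. With 1 library left out, let-7d-5p lay between -3.59 and 0.42, let-7e between -0.068 and 0.69 and let-7h between -1.06 and 0.28.

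For N. furzeri in diapause against A. striatum, 59 miRNAs were called, against 22 with library totals only, 38 at 50 CPM or more, 14 with strain MZM0410 only, 20 with library totals only and without diapause replicate 1, and 42 to 65 with 1 library left out. Of let-7 members, 0 were called with library totals only, 1 without a filter, 1 at 50 CPM or more, and 1 to 3 with 1 library left out. let-7a turned to 0.017 with library totals only. let-7d-5p turned to 0.42 within pool 3 and, in an alternative added after seeing the data, to 0.21 without diapause replicate 1 and A. striatum replicate 4. With 1 library left out, let-7a lay between -1.29 and 0.093, let-7d-5p between -2.85 and 2.45 and let-7e between -0.54 and 0.014.

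For the species, no let-7 member was called under any of 18 alternatives, and 8 miRNAs were called with the DESeq2 Wald test and 0 to 2 with 1 species left out. let-7e, let-7i and let-7j turned to -0.15, -0.12 and -0.52 with library totals only. With A. leohoignei counted as annual, let-7i and let-7j were -0.027 and -0.013, and with 1 species left out they lay between -0.18 and 1.38 and between -0.28 and 0.99. let-7g stayed negative in all 18. Depth limits let-7b, let-7c-5p, let-7f and let-7h most, with 83 to 147 counts over 18 libraries.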

Other observations

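Of 102 miRNAs averaging at least 50 CPM, 7 (6.86%) were above every other library in all 8 lane 1 libraries and 0 were below. They were miR-9-7-3p, miR-19a-3p, miR-19b-3p, miR-19d-3p, miR-30c-5p, miR-125a and miR-200b-3p, and no let-7 member was among them. miR-9-7-3p stood at 12.1 to 3963 RPM in lane 1 and at 0.393 to 11.6 RPM elsewhere, and it was highest in the MZM0403 library, where let-7 was highest too. miR-9-7-3p is also one of the 8 neural miRNAs, whose sum in that library was 6462 RPM. These miRNAs were named after their values were seen.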
